A study of Mus musculus with 23 samples.

Results

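OT-II CD4 T cells from mice given A8B1-OVA were compared with OT-II cells from mice given OVA alone at a molar-equivalent dose. The comparison takes 6 of the 23 libraries of the series, 3 with A8B1-OVA and 3 with molar-equivalent OVA, and the libraries were chosen by their labels. OT-II cells are CD4 T cells whose transgenic receptor recognises ovalbumin (OVA) on MHC class II, and OT-I cells are their CD8 counterpart, restricted by MHC class I. Both cell types had been transferred together into C57BL/6 hosts. On day 1 after the transfer the mice received 1 ug A8B1-OVA, the matching molar amount of OVA, more OVA, or saline, and on day 5 the cells were sorted from pooled spleens and lymph nodes. Each library holds RNA pooled from 3 mice, made into cDNA with the SmartSeq protocol. The series concerns antigen that is directed to erythrocytes; the construct behind the name A8B1 is not described in the sources used here. The titles of the OVA groups carry the numbers 0.5 and 5 without a unit, so the dose of molar-equivalent OVA is not known here. The cell type field of the OT-II libraries reads OT-i, and they were taken as OT-II from their titles and their source, CD4 T cells. The hosts kept their own lymphocytes and the sort gate is not given, so RNA of other cells cannot be left out of account. Whether the 3 libraries of a group are separate experiments beyond the pools of mice is not stated in the labels, so the p-values measure the spread between these pools.

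As background, a CD4 T cell that meets its antigen through its receptor turns on transcription factors of the EGR, NFAT, IRF and NF-kB families, leaves the resting state and can divide. Without co-stimulation the same signal can leave the cell anergic, a state of poor response to renewed stimulation in which EGR2, EGR3 and NFAT act and in which PD-1 (Pdcd1), LAG-3 and folate receptor 4 (Izumo1r) are found on the surface. Many genes of anergy are also genes of recent receptor stimulation, of follicular helper cells or of regulatory cells, so a gene list named after one state does not by itself tell these apart.

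The labelled cell type was checked first. Cd4, the co-receptor that defines the lineage, was at 584, 610 and 578 CPM (counts scaled to library size, with TMM factors) with A8B1-OVA and at 561, 604 and 566 CPM with molar-equivalent OVA, and the groups overlapped. Cd8a was at 1.17 to 2.24 CPM and 2.43 to 5.13 CPM in the same libraries. Cd8b1 was at 24.9, 30.7 and 24.9 CPM with A8B1-OVA and at 42.9, 50.2 and 51.2 CPM with molar-equivalent OVA. Of 8 CD4 lineage genes tested, 1 (Cd28) rose and 2 (Cd40lg and Gata3) fell, with a median of -0.12. Over all tested genes 3.94% rose and 2.43% fell. With a replicate block the number that rose was 0. Markers of other cells were present at low summed levels and not evenly. The 22 B cell markers summed to 487, 514 and 263 CPM in the A8B1-OVA libraries and to 344, 750 and 1311 CPM in the molar-equivalent OVA libraries, so replicate 3 of the latter stood highest. The 24 tested myeloid markers summed to 310 to 379 CPM against 491 to 512 CPM without overlap. The 18 erythroid markers in the table, of interest for an antigen directed to erythrocytes, summed to 215 to 416 CPM against 392 to 474 CPM. None of the B cell or myeloid markers passed the test in the main fit, and their medians were -0.91 and -0.92 on the log2 scale. In other fits some passed as lower with A8B1-OVA. The myeloid count was 2 without molar-equivalent OVA replicate 3 and saline replicate 1, 2 with a replicate block and 2 with DESeq2. The B cell count was 1 with DESeq2. The part of these cells in the results below was not tested, but the main counts are given with and without molar-equivalent OVA replicate 3 and saline replicate 1, which had 1106 CPM of myeloid and 1225 CPM of erythroid markers, the highest of the 11 OT-II libraries. In bulk RNA, fewer cells that express a gene and less RNA per cell cannot be told apart.

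A8B1-OVA and molar-equivalent OVA left different RNA profiles in OT-II cells. Of 14757 genes tested with edgeR's quasi-likelihood test, 939 (6.36%) passed a Benjamini-Hochberg adjusted p of 0.05. Of the tested genes, 581 (3.94%) passed as higher and 358 (2.43%) as lower with A8B1-OVA. The counts of gene lists below stand beside these shares, with no set test. The changes were larger upward: 277 genes rose and 45 fell by more than 2-fold, while the median log2 fold change over all tested genes was -0.00. The A8B1-OVA libraries had about 57485900 to 64846000 counts and the molar-equivalent OVA libraries 49031100 to 54827300, so that 3 counts, the limit that a count of 0 allows, correspond to 0.0463 to 0.0612 CPM (counting error only). On the first principal component of log2 CPM over the 11 OT-II libraries, which held 21.4% of the variance, the A8B1-OVA libraries lay at -60.4, -62.3 and -38.5. The molar-equivalent OVA libraries lay at 43.7, 23.7 and 15.7, beside the saline libraries at 22.2 to 29, and the 2 higher-dose OVA libraries lay between at 2.97 and -3.38. Without molar-equivalent OVA replicate 3 and saline replicate 1, the libraries with raised B cell or myeloid markers, 674 genes passed. This fit did not remove the myeloid difference between the groups. In the libraries left, the myeloid sums were 310 to 379 CPM with A8B1-OVA and 491 and 500 CPM with molar-equivalent OVA. The number depended on single libraries: 441 genes passed without molar-equivalent OVA replicate 1 and 577 and 626 without its replicates 2 and 3, 561 without A8B1-OVA replicate 1 and 543 without its replicate 2, and 968 without A8B1-OVA replicate 3. None of the 939 genes changed direction in any of these fits.

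**Figure D1:**
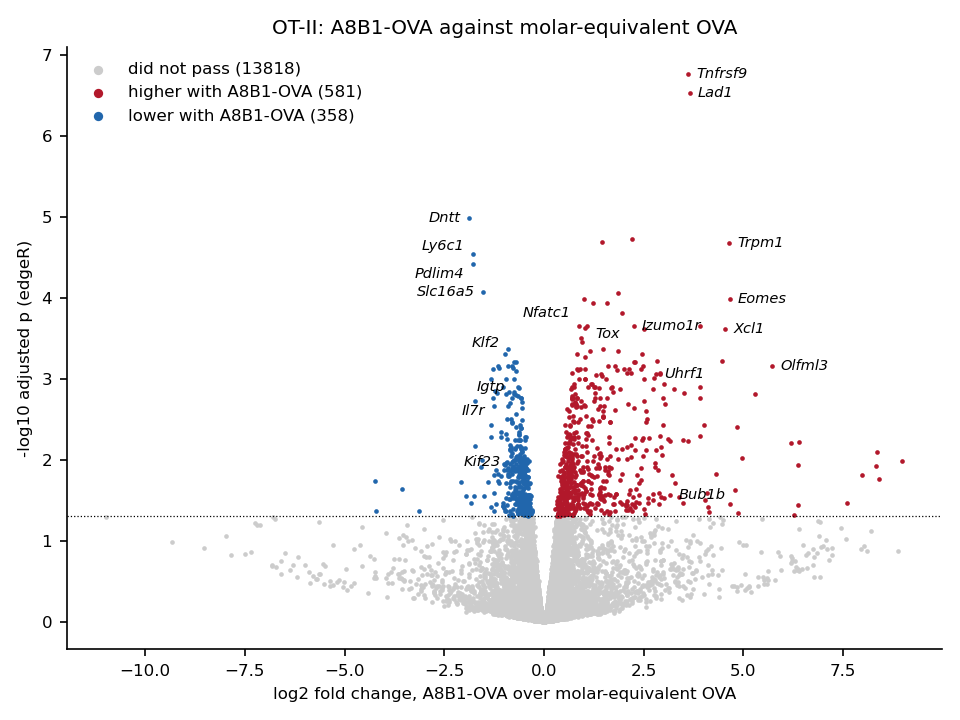
Each point is 1 of the 14757 genes tested in OT-II cells, with the log2 fold change of A8B1-OVA over molar-equivalent OVA on the x axis and the negative log10 of the edgeR adjusted p on the y axis; the dotted line marks 0.05. Of the 581 genes that rose 277 lie beyond 2-fold, and of the 358 that fell 45 do. Tnfrsf9 and Lad1 have the lowest adjusted p.

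Among genes with at least 10 CPM in the higher group and no overlap between the groups, Olfml3, Eomes, Trpm1 and Xcl1 had the highest log2 fold changes; genes of lower level, such as Egr4 and Syt6 below, had larger fitted values. Eomes (chromosome 9, 118478212 to 118486132, plus strand, GRCm38) encodes a T-box factor known from memory CD8 T cells and NK cells. It was at 111, 146 and 93.6 CPM with A8B1-OVA and at 2.97, 3.07 and 7.84 CPM with molar-equivalent OVA, a 25.2-fold rise (log2 fold change 4.66 ± 0.41 SE, adjusted p = 1e-04). All 3 A8B1-OVA libraries lay above the 2 higher-dose OVA libraries, at 12.9 and 13.2 CPM, and above the saline libraries, at 2.56 to 5.66 CPM. Olfml3, for a secreted olfactomedin-domain protein, was at 34.3, 57.1 and 20.9 CPM against 0.258, 0.969 and 0.901 CPM (log2 fold change 5.73 ± 0.68, adjusted p = 7e-04). Trpm1, a cation channel gene, was at 16.3, 16.7 and 11.8 CPM against 0.59, 0.598 and 0.607 CPM (4.63 ± 0.34). Xcl1, a chemokine that attracts cross-presenting dendritic cells, was at 14, 14.5 and 13 CPM against 0.277, 1.01 and 0.49 CPM (4.55 ± 0.46). Other genes chosen by the same rule were Arhgap20, Crtam, Bcat1, Wnt10a, Jdp2 and Itga9, with log2 fold changes of 4.45 ± 0.51, 3.92 ± 0.53, 3.91 ± 0.39, 3.90 ± 0.56, 3.52 ± 0.49 and 3.27 ± 0.45. Eomes and Crtam are also on the list of 7 CD8 T cell markers and Eomes and Xcl1 on the list of 16 NK cell markers. Other members of these lists fell: Cd8b1, Klrk1 and Runx3 on the first, and Prf1, Cd7 and Klrd1 on the second. The calls of Klrk1, Runx3 and Klrd1 ended in 1, 3 and 8 of the 15 alternatives, among them without A8B1-OVA replicate 1 for Klrk1 and without molar-equivalent OVA replicate 1 or 2 for Runx3. Olfml3 (chromosome 3, 103722222 to 103738001, minus strand) lies next to Syt6 (103575231 to 103645569, plus strand), which was named after its values were seen: it was at 5.42, 2.28 and 1.91 CPM with A8B1-OVA and at 0, 0 and 0.118 CPM with molar-equivalent OVA (adjusted p = 0.048, a call that ended with any 1 of the 6 libraries left out).

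Co-stimulatory receptors and ligands of the T cell surface rose in part. Tnfrsf9 (chromosome 4, 150914562 to 150946102, plus strand) encodes the co-stimulatory receptor 4-1BB, which appears after receptor stimulation. It was at 350, 387 and 362 CPM with A8B1-OVA and at 24.5, 33.8 and 31.6 CPM with molar-equivalent OVA, a 12.2-fold rise (3.61 ± 0.15, adjusted p = 1.7e-07), while the saline libraries were at 25.6 to 34.1 CPM. Lad1, which encodes the filament-anchoring protein ladinin (chromosome 1, 135818598 to 135833342, plus strand), was at 97, 98.8 and 88.6 CPM against 7.14, 7.84 and 7.66 CPM (3.65 ± 0.17, adjusted p = 3e-07). Of 17 co-stimulatory receptors and ligands tested, 7 rose and 1 fell, with a median log2 fold change of 0.38. The number that rose was 4 without A8B1-OVA replicate 1, molar-equivalent OVA replicate 1 or molar-equivalent OVA replicate 3. Icos, a co-stimulator of follicular helper cells, was at 95.6, 92.6 and 94.7 CPM against 58.5, 52 and 54.8 CPM (0.77 ± 0.11), and Tnfsf11 and Slamf6 rose by 1.47 ± 0.23 and 0.66 ± 0.11. Tnfrsf4 and Tnfrsf18, which encode OX40 and GITR, did not pass (0.36 ± 0.26 and 0.31 ± 0.13, adjusted p = 0.49 and 0.19). The member that fell was Cd40lg, the CD40 ligand through which CD4 cells help B cells and dendritic cells: it was at 118, 89.7 and 130 CPM against 267, 196 and 191 CPM (-0.95 ± 0.16, adjusted p = 0.0048), although its adjusted p was 0.16 in a fit of all 23 libraries.

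Of 20 inhibitory receptors and ligands, 6 rose and none fell, while 14 did not pass and the median over the list was 0.04. Pdcd1, which encodes PD-1, was at 84.3, 101 and 73 CPM with A8B1-OVA and at 19.7, 16.4 and 11.7 CPM with molar-equivalent OVA (2.43 ± 0.30, adjusted p = 7.5e-04). Cd200, a ligand that restrains myeloid cells, was at 140, 184 and 82.7 CPM against 18.1, 33.6 and 21.6 CPM (2.48 ± 0.29, adjusted p = 7e-04). The groups did not overlap in either gene, and the 2 higher-dose OVA libraries lay between them, at 25.3 and 28.4 CPM for Pdcd1 and 40.7 and 49.7 CPM for Cd200. Cd160 and Pdcd1lg2 rose by 1.39 ± 0.22 and 2.08 ± 0.37. Lag3 passed at a low level, 2.2, 3.91 and 2.12 CPM against 0.738, 0.577 and 0.372 CPM (2.28 ± 0.42). Ctla4 did not pass, at 38.3, 35.7 and 22.1 CPM against 17.8, 20.5 and 19 CPM (adjusted p = 0.067). It passed in 3 of the 15 alternatives, among them DESeq2 and without A8B1-OVA replicate 3. Tigit was at 1.37 to 2.98 CPM against 2.02 to 3.62 CPM, and Havcr2, which encodes TIM-3, was at or below 1.22 CPM in all 6 libraries; neither passed (adjusted p = 0.70 and 0.46).

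**Figure D2:**
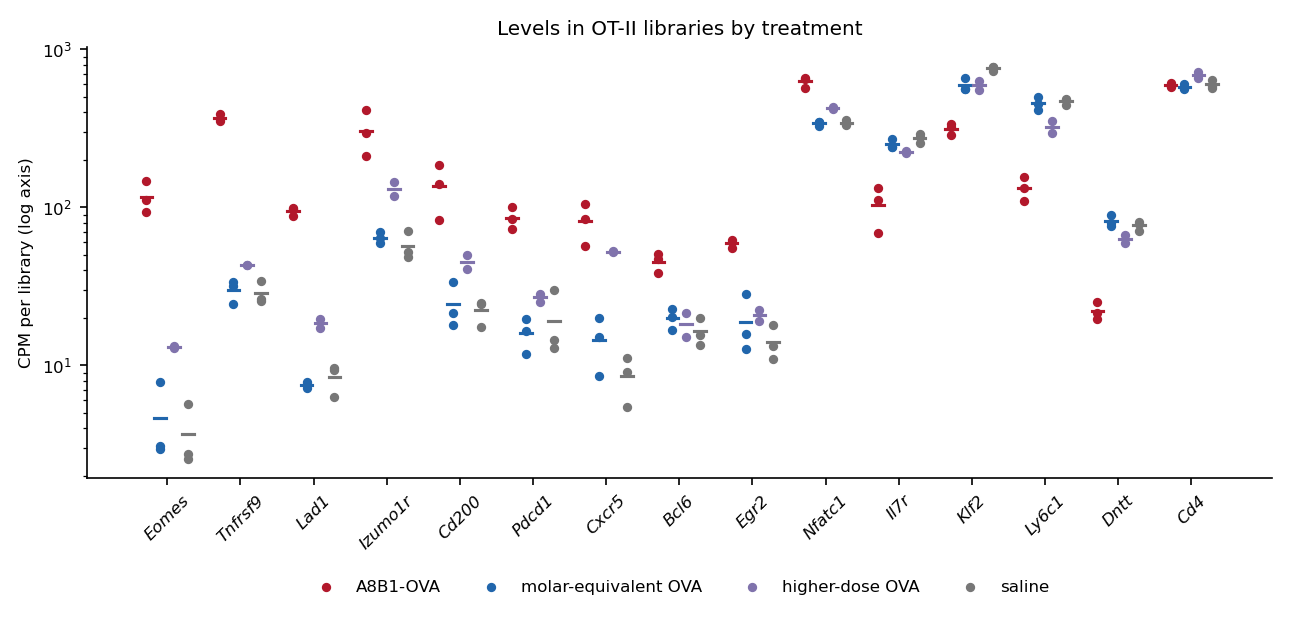
CPM of 15 genes on a log axis in the OT-II libraries, by treatment; points are libraries and bars are group means (3 libraries, 2 for higher-dose OVA). In Tnfrsf9 and Lad1 the 3 A8B1-OVA libraries stand above every other OT-II library, in Dntt and Ly6c1 below, while Cd4 overlaps between A8B1-OVA and molar-equivalent OVA.

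Transcription factors downstream of the T cell receptor were mostly higher. Of 20 tested, 14 rose and none fell, with a median log2 fold change of 0.84. Their summed level was 2745, 2653 and 2566 CPM with A8B1-OVA and 1667, 1275 and 1311 CPM with molar-equivalent OVA. Nfatc1, the NFAT member that receptor signals induce, was at 662, 654 and 566 CPM against 328, 349 and 349 CPM (0.87 ± 0.09, adjusted p = 2.2e-04). Egr2, a zinc-finger factor of receptor signalling and anergy (chromosome 10, 67535475 to 67542188, plus strand), was at 55.3, 60.7 and 62.1 CPM against 28.3, 15.7 and 12.8 CPM (1.65 ± 0.26, adjusted p = 0.0034), and Egr3 was at 16.8, 29.9 and 29.3 CPM against 5.77, 8.08 and 6.31 CPM (1.91 ± 0.26). No molar-equivalent OVA library reached the lowest A8B1-OVA library in these 3 genes. Ikzf2, which encodes Helios, and Irf8 rose by 2.08 ± 0.26 and 1.72 ± 0.24. Egr1 passed with an adjusted p of 0.039, at 520, 396 and 407 CPM against 322, 139 and 196 CPM, and Irf4 with an adjusted p of 0.048; both calls ended in 7 of the 15 alternatives, among them without A8B1-OVA replicate 1 or 2 or molar-equivalent OVA replicate 2 or 3, and for Egr1 also without A8B1-OVA replicate 3. Egr4, named after its values were seen, had no count in the 3 molar-equivalent OVA libraries and was at 0.999, 2.16 and 0.289 CPM with A8B1-OVA, at least 19.6-fold higher than 3 counts in each library. Nr4a1, an immediate early gene whose level follows receptor signals, did not pass, at 505, 457 and 531 CPM against 458, 193 and 189 CPM (adjusted p = 0.17), and replicate 1 of molar-equivalent OVA lay beside the A8B1-OVA libraries. Nr4a3 was at 20.3, 28.3 and 26.8 CPM against 21.7, 11.4 and 9.01 CPM (adjusted p = 0.15). Without molar-equivalent OVA replicate 1 both Nr4a1 and Nr4a3 passed (edgeR adjusted p = 0.016 and 0.031). The count of the list was 9 without the libraries with raised markers and ran from 8 to 13 when 1 library was left out, lowest without molar-equivalent OVA replicate 2 and at 9 without A8B1-OVA replicate 1 or molar-equivalent OVA replicate 3.

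The AP-1 family is the partner of NFAT in productive activation. Of 11 members tested, 1 (Batf) rose and none fell, and the median was -0.31. Over all tested genes 3.94% rose and 2.43% fell. The call of Batf ended in 7 of the 15 alternatives, among them without any 1 library other than A8B1-OVA replicate 3, and 1 member fell without A8B1-OVA replicate 1. The summed AP-1 level was 4475, 2416 and 2212 CPM with A8B1-OVA and 5019, 3631 and 4549 CPM with molar-equivalent OVA, and 2610 to 7480 CPM in the other OT-II libraries, and the groups overlapped. Genes of this family also respond to cell handling, and the 27 genes of the handling stress and heat shock list, of which 2 rose and 1 fell (0 to 3 in each direction with 1 library left out), varied from 12646 to 21039 CPM within the A8B1-OVA group. Of 18 NF-kB subunits and inhibitors, 5 rose and none fell: Traf1 (0.71 ± 0.10), Nfkb2 (0.66 ± 0.11), Nfkb1 (0.65 ± 0.12), Relb (0.66 ± 0.13) and Rel (0.92 ± 0.19); the number was 3 without molar-equivalent OVA replicate 1. Of 14 early activation markers 2 rose, Cd5 and Cd6, surface proteins that damp receptor signals: Cd5 was at 410, 429 and 377 CPM against 214, 274 and 235 CPM (0.75 ± 0.10), and Cd6 had a log2 fold change of 0.56 ± 0.10. Of 19 feedback phosphatases and suppressors, 4 rose and 1 fell; 4 fell without A8B1-OVA replicate 1, and none without A8B1-OVA replicate 2 or molar-equivalent OVA replicate 1. Spry1, an inhibitor of the Ras pathway, was at 37, 34.3 and 24.6 CPM against 2.19, 5.22 and 4.45 CPM (3.02 ± 0.40), and Rgs16, an inhibitor of G protein signals, was at 18.8, 22.5 and 12.9 CPM against 3.47, 2.58 and 2.02 CPM (2.75 ± 0.35).

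Of 29 genes associated with anergy, 10 rose and 4 fell, with a median of 0.20. Tnfrsf9, Cd200, Pdcd1, Crtam, Egr2, Egr3 and Lag3, given above, were among those that rose. Izumo1r and Dgkz rose as well. Izumo1r encodes folate receptor 4, which with CD73 marks anergic CD4 T cells (chromosome 9, 14885814 to 14903949, minus strand). It was at 296, 411 and 210 CPM with A8B1-OVA, at 59.3, 70 and 63.6 CPM with molar-equivalent OVA and at 144 and 119 CPM with higher-dose OVA (2.25 ± 0.22, adjusted p = 2.2e-04). Nt5e, the gene of CD73, did not pass, at 8.34, 8.45 and 9.95 CPM against 11, 11.8 and 13.4 CPM (adjusted p = 0.34). The diacylglycerol kinases, which shorten Ras signals, split. Dgkz was at 821, 968 and 795 CPM against 446, 506 and 490 CPM (0.84 ± 0.09), while Dgka was at 1003, 851 and 1106 CPM against 1527, 1257 and 1520 CPM (-0.54 ± 0.12, adjusted p = 0.016). The call of Dgka ended when any of A8B1-OVA replicates 1 and 2 and molar-equivalent OVA replicates 1 and 3 was left out. The number of members that fell was 1 without molar-equivalent OVA replicate 1 or 3 or A8B1-OVA replicate 2, and at most 2 without any other library. Cblb, a ubiquitin ligase of anergy, was at 151 to 193 CPM against 148 to 176 CPM and did not pass (adjusted p = 0.68).

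Of 21 genes associated with follicular helper cells, 9 rose and 1 fell, with a median of 0.38, and the list shares Pdcd1, Icos and Cd40lg with those above. Cxcr5, the chemokine receptor that leads T cells to B cell follicles, was at 84.6, 106 and 56.7 CPM with A8B1-OVA and at 8.58, 15 and 19.8 CPM with molar-equivalent OVA (2.51 ± 0.33, adjusted p = 0.001). The 2 higher-dose OVA libraries, at 51.9 and 53.1 CPM, lay just below the lowest A8B1-OVA library. Bcl6, the repressor that directs this fate, was at 38.2, 46.8 and 50.4 CPM against 22.6, 16.7 and 20.3 CPM (1.19 ± 0.19, adjusted p = 0.0038), and here the higher-dose OVA libraries, at 15.1 and 21.5 CPM, lay with molar-equivalent OVA. Prdm1, which encodes Blimp-1 and opposes BCL6, fell from 11.6, 12.2 and 11.1 CPM to 5.15, 4.87 and 3.87 CPM (-1.33 ± 0.23, adjusted p = 0.0052), with an adjusted p of 0.089 in the fit of all 23 libraries. Tox was at 276, 210 and 225 CPM against 117, 115 and 105 CPM (1.08 ± 0.11). Pou2af1, a co-activator known from B cells and follicular T cells, was at 74.6, 119 and 66.5 CPM against 5.87, 12.7 and 20.4 CPM (2.74 ± 0.37). Within the molar-equivalent OVA group Cxcr5 and Pou2af1 were lowest in the library with the lowest summed B cell markers and highest in the library with the highest. Both calls held without the libraries with raised markers. Tox2 did not pass (0.73 ± 0.45, adjusted p = 0.41). Tcf7 stayed between 2501 and 2763 CPM in the 6 libraries and did not pass (adjusted p = 0.49).

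Genes of the other CD4 fates gave mixed counts, while over all tested genes 3.94% rose and 2.43% fell. Of 24 genes associated with regulatory T cells, 5 rose, among them Izumo1r, Ikzf2 and Il2rb, and 1 (Prdm1) fell, with a median of 0.11; 3 rose without molar-equivalent OVA replicate 1 or 2. Foxp3, the factor that defines these cells, did not pass, at 9.76, 9.24 and 11.7 CPM against 7.53, 19.7 and 17.8 CPM (adjusted p = 0.36). Il2rb, a chain of the IL-2 and IL-15 receptors, was at 250, 281 and 188 CPM against 52.9, 77.5 and 95.8 CPM (1.67 ± 0.23). Of 18 Th1-associated genes 2 rose and 3 fell; 1 fell without molar-equivalent OVA replicate 1, and 1 rose without A8B1-OVA replicate 1 or molar-equivalent OVA replicate 1 or 2. Of 9 Th2-associated genes 1 (Gata3) fell, from 116, 112 and 104 CPM to 87, 76.3 and 75.8 CPM (-0.47 ± 0.09, adjusted p = 0.0098, or 0.050 when molar-equivalent OVA replicate 1 was left out). Tbx21, the Th1 factor T-bet, did not pass, at 6.65, 5.82 and 4.94 CPM against 2.60, 9.67 and 10.9 CPM (adjusted p = 0.63). Of 25 cytokines and chemokines 6 rose and 1 fell, with 3 that rose without molar-equivalent OVA replicate 1 or 3. Beside Xcl1, Penk, the precursor of enkephalins, was at 37.7, 41.7 and 16.5 CPM against 4.11, 2.04 and 5.53 CPM (3.04 ± 0.45). Il2, the growth factor of activated T cells, stood near the lower end of detection, at 1.2, 0.877 and 0.836 CPM against 0.184, 0.495 and 0.274 CPM. It did not pass in the main fit (adjusted p = 0.083, or 0.031 with DESeq2). Il2ra, the high-affinity receptor chain, did not pass either (0.32 ± 0.20, adjusted p = 0.42). Ifng, Il10 and Il21, the factors Maf, Ascl2 and Zbtb32 and the anergy-associated ubiquitin ligase Rnf128 did not pass, and each was at or below 6.4 CPM in the 6 libraries (adjusted p = 0.90 to 0.99). Of 15 cytotoxic genes 2 rose and 3 fell, with 1 that fell without A8B1-OVA replicate 1 and 1 that rose without any 1 library other than molar-equivalent OVA replicate 3; Prf1, for perforin, was at 20.1, 21 and 21 CPM against 47.8, 41.6 and 49.5 CPM (-1.16 ± 0.14).

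Of 35 genes associated with resting and memory T cells, 15 fell, 3 rose (Eomes, Il2rb and Id3) and 17 did not pass, with a median of -0.40, and the summed level ran from 12404 to 13753 CPM in the A8B1-OVA libraries and from 16107 to 16741 CPM in the molar-equivalent OVA libraries. Dntt, the template-free DNA polymerase of antigen receptor rearrangement whose RNA lingers in recent thymic emigrants (chromosome 19, 41029275 to 41059525, plus strand), was at 19.7, 21.5 and 25 CPM against 79.5, 89 and 75.9 CPM (-1.88 ± 0.12, adjusted p = 1e-05). Ly6c1 (chromosome 15, 75044018 to 75048830, minus strand), a surface protein of resting and memory CD4 cells, was at 109, 132 and 157 CPM against 454, 502 and 412 CPM (-1.78 ± 0.13). It shares 37.3% of its 31-base words with other genes, most of all with its neighbour copy Ly6c2, so the 2 may not be fully separated. The adjusted p of Ly6c1 was 0.24 in the fit of all 23 libraries. Pdlim4, Myo6 and Slc16a5 had log2 fold changes of -1.78 ± 0.14, -1.74 ± 0.25 and -1.52 ± 0.13. The saline libraries lay with molar-equivalent OVA in Dntt, at 70.9 to 80.7 CPM, and in Ly6c1, at 444 to 487 CPM. Il7r, the receptor chain for the survival factor IL-7, was at 112, 68.3 and 132 CPM against 242, 272 and 240 CPM (-1.27 ± 0.18, adjusted p = 0.0017), and Tsc22d3, a glucocorticoid-induced gene, was at 722, 290 and 545 CPM against 1280, 1174 and 1270 CPM (-1.26 ± 0.27, adjusted p = 0.015, and 0.053 without the libraries with raised markers; its call also ended without molar-equivalent OVA replicate 1). The count of the list was 10 without the libraries with raised markers and ran from 8 without molar-equivalent OVA replicate 1 to 15 without A8B1-OVA replicate 3.

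Homing genes fell in part. Of 30 chemokine receptors and homing genes, 7 fell and 3 rose, with a median of -0.39. Klf2 (chromosome 8, 72319033 to 72321656, plus strand), the factor that keeps naive cells recirculating, was at 321, 336 and 287 CPM against 559, 658 and 560 CPM (-0.91 ± 0.10, adjusted p = 4.3e-04), and its target S1pr1 was at 547, 494 and 620 CPM against 1003, 901 and 891 CPM (-0.75 ± 0.10). Ccr7 was at 838, 792 and 802 CPM against 1185, 1252 and 1048 CPM (-0.52 ± 0.10), and its call ended without molar-equivalent OVA replicate 1 or 2. The list had 4 members that fell without molar-equivalent OVA replicate 2. The integrin genes moved apart: Itgb7, of the gut-homing integrin, fell from 1507, 1325 and 1413 CPM to 863, 852 and 879 CPM (-0.71 ± 0.08), and Itgal, of LFA-1, rose from 508, 542 and 629 CPM to 897, 917 and 914 CPM (0.70 ± 0.09).

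**Figure D3:**
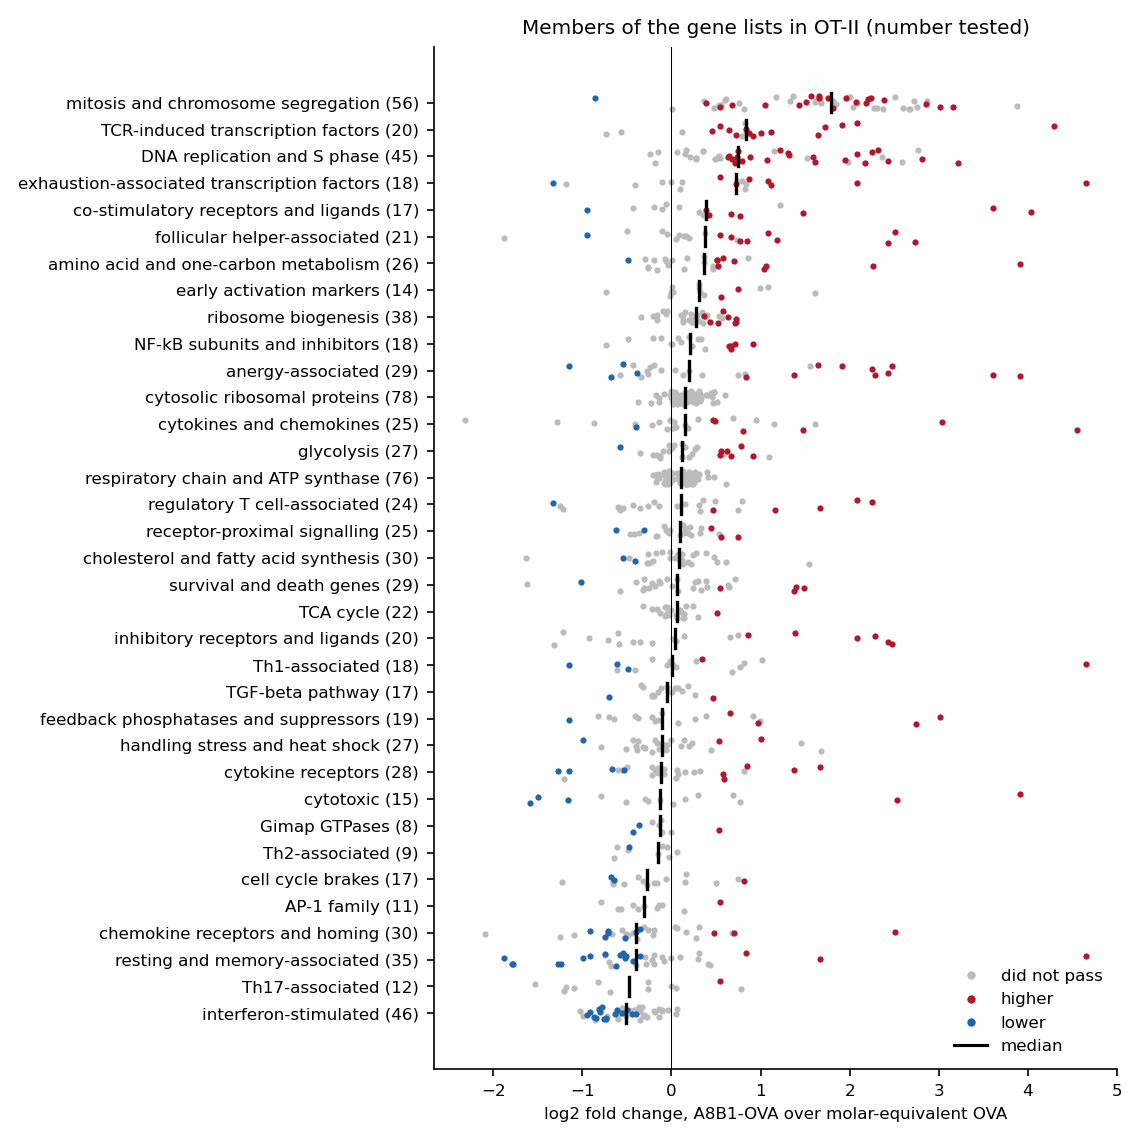
Log2 fold change in OT-II cells of each tested member of 35 gene lists, A8B1-OVA over molar-equivalent OVA. The number tested is in brackets and the median is a black bar. Egr4 and Ccl1, without a count in the molar-equivalent OVA group, are drawn at their bound. The mitosis list has the highest median, 1.79, and the interferon-stimulated list the lowest, -0.50.

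Genes of cell division were higher with A8B1-OVA. Of 45 genes of DNA replication and S phase, 22 rose and none fell, with a median of 0.74 and 42 of 45 values above 0. Their summed level was 2793, 2992 and 2330 CPM with A8B1-OVA and 1751, 1652 and 1850 CPM with molar-equivalent OVA. Uhrf1, which carries DNA methylation through replication, was at 44.6, 67.9 and 27.1 CPM against 7.27, 4.08 and 8.46 CPM (2.81 ± 0.35, adjusted p = 8.7e-04). Pole, the leading-strand polymerase, was at 12.4, 14.3 and 10.5 CPM against 2.93, 2.39 and 2.9 CPM (2.17 ± 0.27). The helicase subunits Mcm5 and Mcm3 rose by 1.31 ± 0.17 and 0.88 ± 0.11. Of 56 genes of mitosis and chromosome segregation, 20 rose and 1 fell, with a median of 1.79 and 55 of 56 values above 0. The condensin genes Ncapd2, at 47.4, 59.2 and 50.3 CPM against 22.5, 23.8 and 29.6 CPM, and Smc2, at 49.2, 50.3 and 49.1 CPM against 35.4, 32 and 34.1 CPM, rose by 1.05 ± 0.19 and 0.55 ± 0.10. Kif23, a kinesin of cytokinesis, was the member that fell, from 18.2, 22 and 20.4 CPM to 10.5, 13.2 and 9.65 CPM (-0.86 ± 0.16, adjusted p = 0.0075). Mki67, the usual marker of cycling cells, did not pass, at 14.2, 21.6 and 4.69 CPM against 0.941, 4.25 and 2.98 CPM (adjusted p = 0.099), nor did Cdk1 (7.13, 14.3 and 3.07 CPM against 0.922, 2.19 and 1.2 CPM, adjusted p = 0.052). Cdk1 passed in 6 of the 15 alternatives, among them DESeq2 and without A8B1-OVA replicate 3, and Mki67 in 1, the fit of all 23 libraries. In these genes and in Uhrf1, A8B1-OVA replicate 3 was the lowest of its group.

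The counts of the division lists rested on single libraries more than the medians show. The mitosis count was 15 without the libraries with raised markers. It was 33 without A8B1-OVA replicate 3 and 5 without A8B1-OVA replicate 2 or molar-equivalent OVA replicate 2. It was 6 without molar-equivalent OVA replicate 1, 7 without A8B1-OVA replicate 1 and 9 without molar-equivalent OVA replicate 3. The S phase count was 19 without the libraries with raised markers and ran from 10 without molar-equivalent OVA replicate 1 to 25 without A8B1-OVA replicate 3, with 13 without A8B1-OVA replicate 2 and 14 without molar-equivalent OVA replicate 2. The 2 higher-dose OVA libraries had summed mitosis levels of 1215 and 1309 CPM, between those of molar-equivalent OVA, 906 to 1019 CPM, and of A8B1-OVA, 1421 to 1820 CPM. Of 17 cell cycle brakes 1 rose and 2 fell (0 to 2 in each direction with 1 library left out), while 3.94% of all tested genes rose and 2.43% fell. Cdkn1a did not pass, at 1.77 to 3.47 CPM against 2.88 to 4.8 CPM (adjusted p = 0.39).

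The promoters of the division genes carried motifs that are known from cell cycle control. RefSeq windows on GRCm38.p6, from 250 bases before to 50 after a gene's start, were found for 11486 tested genes, and both strands were searched. The E2F sites TTTCGCGC or TTTGGCGC were in the windows of 14 of 37 S phase genes (37.8%) and of 8 of the 17 that rose and had a window (47.1%), against 1.62% of all tested genes. The CCAAT box (CCAAT) together with the CHR element (TTTGAA or TTTCGAA), a pair bound by NF-Y and the DREAM complex at genes of late cell cycle, was in 31 of 48 mitosis windows (64.6%) and in 14 of the 18 that rose (77.8%), against 6.79% of all. A match is a description of the letters and not a site. Kif23, the mitosis gene that fell, also had the CCAAT box and CHR pair in its window, which is not shown. The windows below were taken only from members that rose. They belong to the 2 of each list with the lowest adjusted p whose window holds the motif. Each shows the 250 bases before the start, 5′ to 3′ on the strand of the gene, with the motif in capitals on whichever strand it matched. Uhrf1 is at chr17:56304063-56304312 (plus strand) and Mcm5 at chr8:75109259-75109508 (plus strand), where the capitals in Mcm5 are 2 overlapping E2F matches on opposite strands. Ncapd2 is at chr6:125191587-125191836 (minus strand), with 3 CCAAT boxes and 1 CHR, and Smc2 at chr4:52438971-52439220 (plus strand), with 1 of each.
Uhrf1: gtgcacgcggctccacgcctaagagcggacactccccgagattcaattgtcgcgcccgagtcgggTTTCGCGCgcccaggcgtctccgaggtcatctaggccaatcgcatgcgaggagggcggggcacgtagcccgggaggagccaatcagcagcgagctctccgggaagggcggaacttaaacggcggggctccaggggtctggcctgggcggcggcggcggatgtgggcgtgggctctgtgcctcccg
Mcm5: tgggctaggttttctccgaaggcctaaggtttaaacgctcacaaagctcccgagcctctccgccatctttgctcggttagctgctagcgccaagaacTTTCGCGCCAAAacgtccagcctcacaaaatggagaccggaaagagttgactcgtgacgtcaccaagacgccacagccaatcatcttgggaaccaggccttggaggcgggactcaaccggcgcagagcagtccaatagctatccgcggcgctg
Ncapd2: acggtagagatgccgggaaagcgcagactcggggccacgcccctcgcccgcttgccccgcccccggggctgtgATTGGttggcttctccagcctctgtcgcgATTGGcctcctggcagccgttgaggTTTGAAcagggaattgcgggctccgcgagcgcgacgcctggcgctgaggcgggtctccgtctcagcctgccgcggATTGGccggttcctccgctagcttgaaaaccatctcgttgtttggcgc
Smc2: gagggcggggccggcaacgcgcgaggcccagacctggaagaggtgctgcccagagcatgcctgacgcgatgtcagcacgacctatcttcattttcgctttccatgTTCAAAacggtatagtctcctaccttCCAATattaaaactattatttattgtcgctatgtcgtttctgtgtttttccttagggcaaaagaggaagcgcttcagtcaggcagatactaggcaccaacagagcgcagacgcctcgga

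Interferon-stimulated genes were lower with A8B1-OVA. Of 46 tested, 16 fell and none rose, with a median of -0.50 and 44 of 46 values below 0. Their summed level was 6875, 6217 and 7220 CPM with A8B1-OVA, 10599, 8848 and 8895 CPM with molar-equivalent OVA and 8303 to 9046 CPM in the saline and higher-dose OVA libraries, so the A8B1-OVA libraries were the 3 lowest of the 11. Igtp, an immunity-related GTPase, was at 279, 259 and 294 CPM against 540, 404 and 461 CPM (-0.75 ± 0.10, adjusted p = 0.0014). It shares 15.9% of its 31-base words with other genes, most of all with Irgm2. Gbp2, a guanylate-binding protein gene, was at 85.7, 69.6 and 91.6 CPM against 166, 131 and 136 CPM (-0.81 ± 0.13). Slfn1 and Ly6a, the gene of the surface protein Sca-1, had log2 fold changes of -0.81 ± 0.13 and -0.87 ± 0.12. Ly6a shares 29.2% of its words with other genes, most of all with Ly6c1. Molar-equivalent OVA replicate 1 had the highest summed level of the 11 OT-II libraries, and without it the count was 5. It was 9 without A8B1-OVA replicate 1, 8 without A8B1-OVA replicate 2 and 15 without the libraries with raised markers.

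The interferon-related element GAAANNGAA, added to the search after the data were seen, was in 22 of 34 windows of the list (64.7%) against 9.05% of all tested genes. Among the 13 members that fell and had a window it was in 6 (46.2%). The same display is given for the 2 of them with the lowest adjusted p, Igtp at chr11:58199306-58199555 (plus strand) and Gbp2 at chr3:142620413-142620662 (plus strand).
Igtp: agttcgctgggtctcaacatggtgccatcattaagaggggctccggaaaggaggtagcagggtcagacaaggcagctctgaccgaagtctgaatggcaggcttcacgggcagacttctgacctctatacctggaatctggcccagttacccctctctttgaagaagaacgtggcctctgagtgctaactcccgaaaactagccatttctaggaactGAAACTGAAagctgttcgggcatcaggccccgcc
Gbp2: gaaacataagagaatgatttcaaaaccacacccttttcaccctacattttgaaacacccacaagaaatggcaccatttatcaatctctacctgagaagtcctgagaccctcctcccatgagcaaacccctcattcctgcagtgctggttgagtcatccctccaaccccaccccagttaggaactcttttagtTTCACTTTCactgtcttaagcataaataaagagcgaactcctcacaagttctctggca

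The motifs of receptor-induced factors were also searched in the windows of the receptor-induced transcription factor genes. An EGR site (GCGTGGGCG or GCGGGGGCG) was in 1 of 13 windows and an NFAT site (TGGAAA) in 1 of 13, against 6.80% and 20.6% of all tested genes, and an AP-1 site (TGANTCA) was in none, against 6.70%. With 13 windows these counts are a description only.

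**Figure D4:**
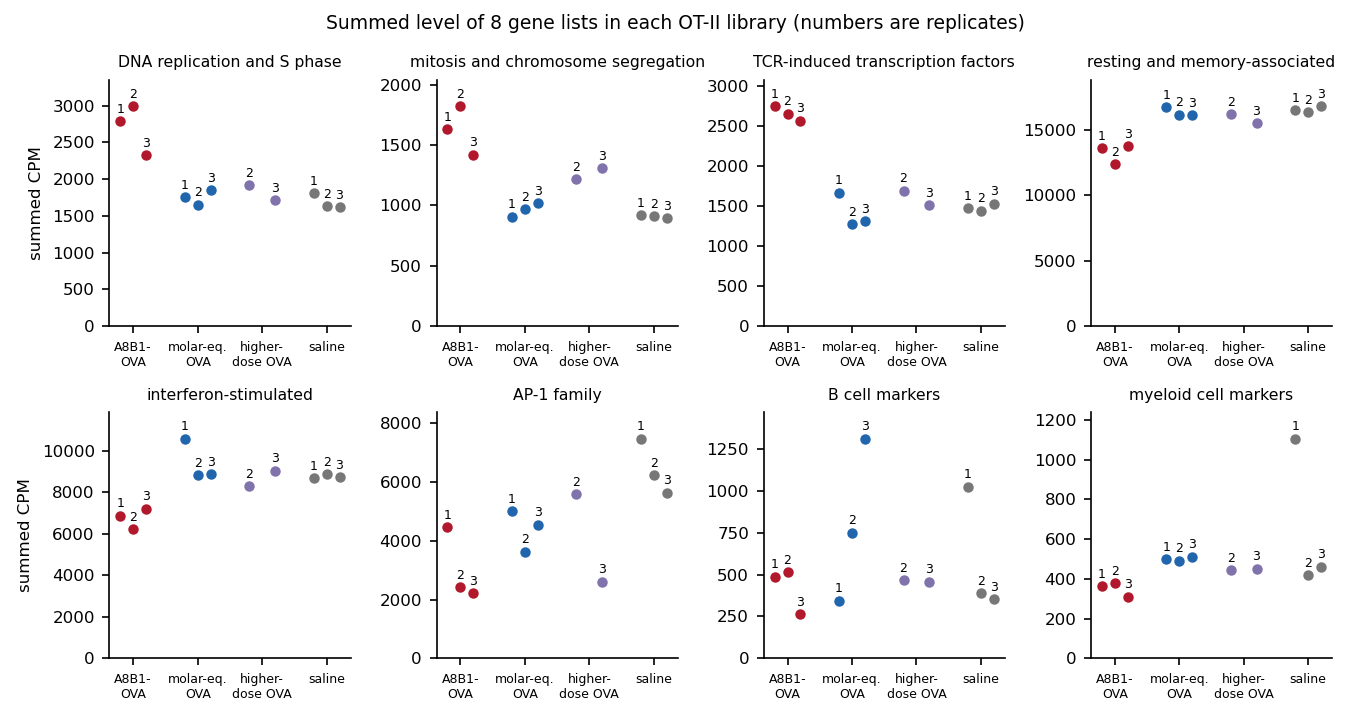
Summed CPM, by plain library totals, of 8 gene lists in each of the 11 OT-II libraries, by treatment, with the replicate number above each point. The A8B1-OVA libraries are the 3 highest for the S phase, mitosis and receptor-induced factor lists and the 3 lowest for the resting and interferon-stimulated lists, and molar-equivalent OVA replicate 3 is the highest for B cell markers.

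Metabolic genes rose in part, while over all tested genes 3.94% rose and 2.43% fell. Of 26 genes of amino acid and one-carbon metabolism, 9 rose and 1 fell, with a median of 0.37, and 5 rose without A8B1-OVA replicate 1 or 2 or molar-equivalent OVA replicate 1 or 3. Shmt1, a serine hydroxymethyltransferase of folate metabolism, was at 44.9, 56.4 and 37.7 CPM with A8B1-OVA and at 9.59, 8.06 and 11.2 CPM with molar-equivalent OVA (2.27 ± 0.26, adjusted p = 6.1e-04). Odc1, the first enzyme of polyamine synthesis, and Psat1, of serine synthesis, rose by 1.03 ± 0.15 and 1.06 ± 0.16. Bcat1, a transaminase of branched amino acids, was at 19.7, 26.4 and 18.3 CPM against 0.812, 2.31 and 1.16 CPM. Of 38 genes of ribosome biogenesis 8 rose and none fell, with a median of 0.27, and 2 rose without molar-equivalent OVA replicate 1. Ncl, which encodes nucleolin, was at 636, 753 and 753 CPM against 394, 476 and 437 CPM (0.71 ± 0.11). Of 27 glycolysis genes 6 rose and 1 fell, and 1 rose without molar-equivalent OVA replicate 1. Pgam1, a mutase of the pathway, was at 137, 184 and 149 CPM against 75.4, 95.4 and 102 CPM (0.79 ± 0.14). None of 76 genes of the respiratory chain and ATP synthase and none of 78 cytosolic ribosomal protein genes passed, with medians of 0.11 and 0.16. Of 29 survival and death genes 4 rose and 1 fell, and none fell with any 1 of the 6 libraries left out. Bcl2, which protects cells from death, was at 118, 94.2 and 117 CPM against 177, 126 and 130 CPM and did not pass (adjusted p = 0.13).

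The response of OT-II cells was set beside that of the OT-I CD8 cells from mice treated alike. In separate fits, 13905 genes were tested in both cell types, and 933 passed in OT-II and 1487 in OT-I. Of these, 450 passed in both in the same direction, 48.2% of the OT-II and 30.3% of the OT-I genes, and 6 passed in opposite directions. These counts are a description, since both cell types may come from the same mice. The difference of the 2 responses was tested in 1 fit of all 23 libraries, in which CPM differ slightly from those above. That fit took the libraries as independent, although OT-I and OT-II libraries may share mice. No alternative paired the 2 cell types, so the adjusted p of the differences do not account for shared mice. Of 15235 genes, 43 (0.282%) passed, 19 with a higher and 24 with a lower log2 fold change in OT-II cells, and 1309 had an unadjusted p under 0.05. The count was 16 without OT-I molar-equivalent OVA replicate 1, 96 without OT-I molar-equivalent OVA replicate 2, 21 without OT-II A8B1-OVA replicate 2 or 3, 28 without OT-II A8B1-OVA replicate 1, 22 and 28 without OT-II molar-equivalent OVA replicates 2 and 3, and 24 without OT-I A8B1-OVA replicate 2.

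Eomes and Olfml3 were among the 19 genes with a higher response in OT-II than in OT-I cells. In the joint fit Eomes was at 106, 139 and 89 CPM with A8B1-OVA and 2.86, 2.95 and 7.52 CPM with molar-equivalent OVA in OT-II cells. In OT-I cells it was at 119, 119 and 114 CPM against 68.6, 66.5 and 85.8 CPM (difference of log2 fold changes 3.98 ± 0.46 SE, adjusted p = 1.6e-04). The levels of the 2 cell types were thus alike with A8B1-OVA and apart with molar-equivalent OVA. Olfml3 went opposite ways: in OT-I cells it was at 1.71, 2.57 and 1.71 CPM against 5.84, 4.08 and 5.93 CPM, lower with A8B1-OVA (difference 7.12 ± 0.80, adjusted p = 1.5e-04). Trpm1 and Crtam rose in both, with differences of 2.69 ± 0.35 and 2.51 ± 0.53. Nrp1, which encodes neuropilin-1, had the largest gain in OT-I over OT-II cells of the genes named by the rule. It was at 50.6, 50.1 and 49.1 CPM against 2.64, 6.63 and 3.1 CPM in OT-I cells and at 17.4, 14.7 and 17.8 CPM against 28, 23 and 24.6 CPM in OT-II cells (difference -4.22 ± 0.46, adjusted p = 1.5e-04). Its change in OT-II cells alone did not pass (adjusted p = 0.053), but it did in 2 of the 15 alternatives, DESeq2 and a filter of 1 CPM in 3 libraries. Gata3, named among the genes above, fell in OT-II and rose in OT-I cells (difference -0.87 ± 0.12, adjusted p = 0.0012).

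**Figure D5:**
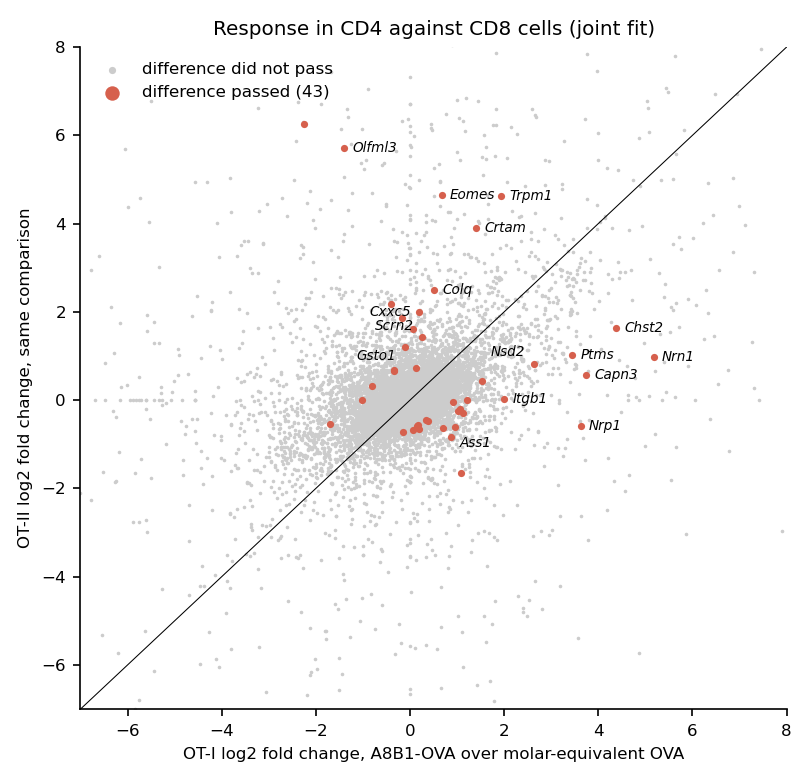
Log2 fold change of A8B1-OVA over molar-equivalent OVA in OT-I cells (x axis) and OT-II cells (y axis) from 1 fit of all 23 libraries, with the line of equal change; 32 genes lie outside the axes, 1 of them with a difference that passed. Red points are the 43 genes whose difference passed: Eomes and Olfml3 lie above the line and Nrp1, Nrn1 and Capn3 below it.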

How the data were processed

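RNA of the 23 libraries was sequenced after polyA selection and SmartSeq amplification. The deposited table holds estimated counts for 21900 genes, made with bcl2fastq and kallisto 0.46.1 on GRCm38 per the submitters' processing notes, and its values are whole numbers. Not given in the sources used here are the annotation release, how transcripts were summed to genes, rounding and strand. With strand unknown, genes that overlap on opposite strands cannot be told apart.

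The deposited estimated counts were tested with edgeR 4.0.16 in R 4.3.3 (quasi-likelihood, TMM scaling, Benjamini-Hochberg adjusted p under 0.05 over all tested genes), after low genes had been removed by filterByExpr (min.count 10, min.total.count 15). All 11 OT-II libraries shared 1 estimate of the spread, with the 4 groups as coefficients, and the difference from OT-I was a contrast in 1 fit of 23 libraries. Fold changes are fitted; an error after ± is the standard error. CPM of genes use TMM factors and CPM of list sums use plain library totals. No 2 of the 6 libraries compared were counted as 1: the lowest chi-square per gene between them was 41.6. The other libraries were not checked in this way. The procedure was tested on simulated data.

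Members and gene lists were chosen with earlier results of these data known. Genes were named if they were, among called genes with at least 10 CPM in the higher group and no overlap, the 15 highest or 15 lowest fold changes; among the 4 lowest adjusted p of a list; on a panel of 50 genes; or among the 8 highest or lowest differences from OT-I. Not every gene that qualified is described, and some are not reported here. Positions are from GENCODE M21 and promoter windows from RefSeq. The alternatives were the libraries in the fit, scaling, DESeq2 1.42.0, the low-count filter, a replicate block and leaving out each library.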

Additional observations from a re-analysis of the deposited data

Results flagged for a closer look

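The response to A8B1-OVA differed between OT-II and OT-I cells in the edgeR test of the difference for the 16 genes named from that test. Differences are OT-II minus OT-I log2 fold changes, each from 3 against 3 libraries in both cell types. The response was higher in OT-II cells for Olfml3 (7.12), Eomes (3.98), Trpm1 (2.69), Crtam (2.51), Colq (1.99), Cxxc5 (1.81), Gsto1 (1.31) and Scrn2 (1.19). It was lower in OT-II cells for Nrp1 (-4.22), Nrn1 (-4.19), Capn3 (-3.17), Chst2 (-2.76), Ptms (-2.43), Itgb1 (-1.97), Nsd2 (-1.82) and Ass1 (-1.71). Of these, Olfml3 and Ass1 passed in both cell types alone with opposite signs, and Ass1, an enzyme of arginine synthesis, had log2 fold changes of -0.82 in OT-II and 0.87 in OT-I cells. Itgb1, the integrin beta 1 chain, had 0.03 in OT-II and 2.00 in OT-I cells in the joint fit. Eomes, Olfml3, Trpm1, Colq, Cxxc5, Nrp1, Nrn1 and Capn3 passed under all 18 alternatives. Ass1 and Nsd2 each missed under 1, Itgb1 and Ptms under 9, Crtam under 10, Chst2 and Gsto1 under 11 and Scrn2 under 15.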

How the results depend on the processing

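edgeR called 939 genes in OT-II cells. DESeq2 called 1718 (971 higher, 747 lower), which included 930 of the 939. Leaving out 1 library gave 441 to 968 genes, 303 to 624 higher and 138 to 344 lower. The difference between OT-II and OT-I (43 genes) gave 174 genes with DESeq2, 16 with only the 12 libraries of the 4 groups and 16 to 96 with 1 library left out. The cause was not tested. Other scaling, filters and library sets moved the OT-II count to between 674 and 1120. Whether the replicate numbers pair the libraries is not stated, and 3 libraries a group are too few to show it. Correlations of same-numbered deviations were 0.042, 0.053 and -0.027, and those of other pairs ran from -0.106 to 0.065. A replicate block gave 747 genes (461 higher, 286 lower), and 10 mitosis genes that rose instead of 20. For the difference the block was set within each cell type and gave 32 genes. Signs turned for 8 genes that did not pass. With the block the log2 fold change of Ascl2 was -0.64 and of Il10 0.41, and without the libraries with raised markers Ifng was at 0.21 and Il10 at 5.53. With 1 library left out, the values ran from -5.80 to 1.26 for Ascl2, -0.83 to 0.32 for Ifng, -0.81 to 5.51 for Il10, -0.58 to 0.41 for Il21, -0.12 to 0.20 for Itgb1, -0.45 to 0.085 for Maf, -0.47 to 0.67 for Rnf128 and -0.087 to 0.27 for Zbtb32. Genes near or below 3 counts in a library, such as Il10 and Ascl2, cannot be read at this depth.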

Other observations

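Of 18 transcription factors associated with T cell exhaustion, 7 rose and 1 fell with A8B1-OVA in OT-II cells, with a median log2 fold change of 0.73. Eomes, Tox, Ikzf2, Irf4, Batf and Nfatc1, described above, are among those that rose. All but Eomes and Tox of those that rose are also on the list of receptor-induced factors. The number that rose was 4 without A8B1-OVA replicate 1, molar-equivalent OVA replicate 2 or molar-equivalent OVA replicate 3. Of 28 cytokine receptors 5 rose and 4 fell. Among them Il2rb rose and Il7r fell, with values given above. The interferon gamma receptor genes Ifngr1 and Ifngr2, named after their values were seen, were among the members that fell (-0.66 ± 0.13 and -0.53 ± 0.12); the call of Ifngr2 ended without A8B1-OVA replicate 1 or 2 or molar-equivalent OVA replicate 1. Of 30 genes of cholesterol and fatty acid synthesis none rose and 2 fell, and of 22 genes of the TCA cycle 1 rose. None of the 30 fell without the libraries with raised markers or with a replicate block. The same held without A8B1-OVA replicate 2 or molar-equivalent OVA replicate 1 or 3. DESeq2 gave 2 of the 30 that rose and 2 that fell. Over all tested genes 3.94% rose and 2.43% fell.

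The 6 genes that passed in OT-II and in OT-I cells with opposite signs were Olfml3, Syt6, Gata3, Slc25a24, Tmem154 and Ass1, and they were named after their values were seen. Slc25a24, a mitochondrial carrier gene, had log2 fold changes of -0.63 in OT-II and 0.69 in OT-I cells, and its call in OT-II cells ended in 7 of 15 alternatives. Tmem154, which encodes a transmembrane protein, had -0.60 and 0.95. The neighbours Olfml3 and Syt6 had 5.73 and 6.28 in OT-II cells and -1.41 and -2.25 in OT-I cells. The test of the difference between the cell types passed for all 6, with an adjusted p of 0.041 for Syt6, 0.024 for Slc25a24 and 0.0019 for Tmem154.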
